A study of Danio rerio with 15 samples.

Results

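The report concerns 189 transcripts whose abundance was raised, relative to untreated zebrafish larvae, by the herbicide acetochlor at 7.8 µM and by the insecticide tefluthrin at both 60 nM and 2.3 µM. They were chosen by their measured abundance, from the 64995 transcripts of the deposited files. All libraries were scaled by the median of ratios, and log2(group mean + 5) was compared between groups. A transcript was taken when its control mean was at most 10000 scaled counts and its highest group mean was at least 50. Its difference from control also had to be at least 0.4 at acetochlor 7.8 µM and at each tefluthrin concentration. In addition, every library of those 3 groups had to lie above every control library. Up to 200 transcripts were to be taken in the order of the smallest of the 3 differences, and that order gives the rank used below; 189 met all conditions, so every one of them is included. Of the 23895 transcripts within the 2 level limits, 634 had all 3 differences at or above the limit, and 445 of these overlapped the controls in some library.

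Tefluthrin is a pyrethroid, a class that holds the voltage-gated sodium channels of nerve cells open. Acetochlor is a chloroacetanilide, which in plants blocks the elongation of very-long-chain fatty acids and which animals conjugate to glutathione. Fish larvae answer many unlike chemicals with overlapping sets of genes, among them detoxifying enzymes of the cytochrome P450 and glutathione transferase families and general stress genes.

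The larvae were wild-type fish of the NHGRI-1 strain, pooled whole at 72 h post fertilisation, and poly(A) RNA was sequenced. There were 3 libraries in each of 5 groups, which were acetochlor at 7.8 µM and at 780 nM, tefluthrin at 2.3 µM and at 60 nM, and untreated control. Exposure began at 48 h post fertilisation. The labels give no vehicle for the control, no number of larvae in a pool and no clutch, batch or date, so p-values measure the spread between these libraries. In whole larvae, more cells of a type and more RNA per cell cannot be told apart.

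The files give Ensembl transcript identifiers without gene names. Of the 64995 identifiers, 0 matched either reference table of gene names, so no function, position or sequence is given for any transcript, and most are referred to by rank. For the same reason the libraries were not checked against tissue markers. Counts of different transcripts depend on transcript length, which is not given here, so a higher count of 1 transcript than of another does not mean more copies of it. Of the 189 transcripts, 47 (24.9%) had whole estimates in every library, exact to the 3 decimals of the files; within 0.05 counts of a whole number the count was 50. The other 142 had a fractional estimate in some library, which arises where reads are divided between similar transcripts, and their levels are less certain. Among all transcripts within the level limits the share with whole estimates was 24.5%.

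Libraries held 17354405 to 25191374 counts. A single acetochlor library stood apart from its group within the set: replicate III of acetochlor 7.8 µM was the lowest of its group in 123 of the 189 transcripts, against 25 for replicate I and 41 for replicate II. Among the controls, replicate III was the highest in 100 of the 189. Beyond the set, the pairs with replicate III also differed most in both groups. This was measured by chi-square per degree of freedom, over transcripts with whole estimates and a mean of at least 10 counts. At acetochlor 7.8 µM it was 2.98 between replicates I and II, against 6.51 and 7.48 for the pairs with III. In control it was 3.13, against 5.46 and 7.56. Without acetochlor 7.8 µM replicate III, 394 transcripts met the conditions, and 110 of the 189 were among the 200 that would be taken. Without control replicate III, 457 met them and 94 of the 189 were among the 200. Leaving out any other control or acetochlor 7.8 µM library also loosened the no-overlap condition: 277 met the conditions and 129 of the 189 were taken again without control replicate I, 241 and 145 without control replicate II, 220 and 153 without acetochlor replicate I, and 222 and 158 without acetochlor replicate II. Without 1 tefluthrin library, 182 to 186 of the 189 were taken again.

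The differences described next chose the transcripts, so they are given without a test. By median, the 189 transcripts were raised least by acetochlor 7.8 µM and most by tefluthrin 2.3 µM. Their difference from control had a median of 0.61 at acetochlor 7.8 µM, 1.44 at tefluthrin 2.3 µM and 1.27 at tefluthrin 60 nM on the log2(group mean + 5) scale, which is 1.53-fold, 2.72-fold and 2.41-fold. The smallest of the 3 differences was that of acetochlor in 156 transcripts, of tefluthrin 60 nM in 19 and of tefluthrin 2.3 µM in 14. The largest was that of tefluthrin 2.3 µM in 109, of tefluthrin 60 nM in 74 and of acetochlor in 6.

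All differences had to be at least 0.4 to enter the set. They were spread less widely at acetochlor 7.8 µM than in either tefluthrin group, and their ranges overlapped. At acetochlor 7.8 µM they ran from 0.40 to 3.04, with quartiles of 0.47 and 0.80. At tefluthrin 2.3 µM they ran from 0.42 to 7.45, with quartiles of 0.92 and 2.27, and at tefluthrin 60 nM from 0.41 to 4.82, with quartiles of 0.83 and 2.02. A difference of at least 1 was reached by 30 transcripts at acetochlor 7.8 µM, by 133 at tefluthrin 2.3 µM and by 122 at tefluthrin 60 nM; a difference of at least 3 by 1, 28 and 15 in that order of groups.

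**Figure D1:**
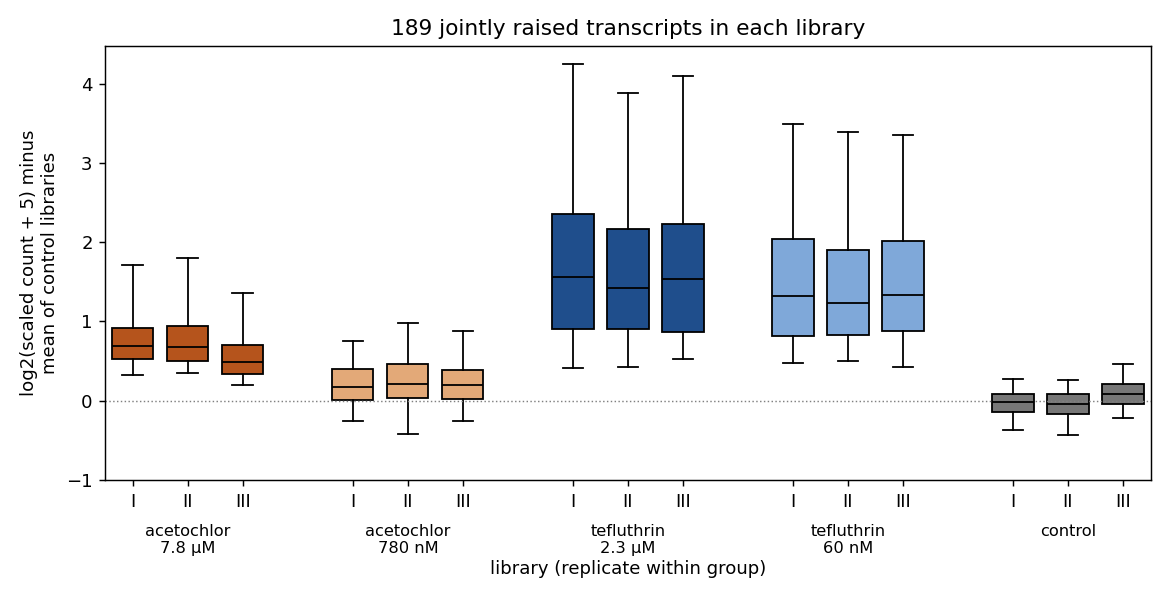
Change of the 189 transcripts in each of the 15 libraries, as log2(scaled count + 5) minus the mean of the 3 control libraries. Boxes span the quartiles with the median as a line, and whiskers the central 90% of transcripts. By median, acetochlor 7.8 µM replicate III lies under the other 2 libraries of its group, and both tefluthrin groups lie above acetochlor. The tefluthrin boxes overlap those of acetochlor 7.8 µM replicates I and II.

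Library by library, the median change over the 189 transcripts was 0.69, 0.68 and 0.49 in replicates I, II and III of acetochlor 7.8 µM. It was 1.56, 1.42 and 1.53 at tefluthrin 2.3 µM, 1.32, 1.24 and 1.34 at tefluthrin 60 nM, and -0.01, -0.04 and 0.09 in control. By this median, all 3 libraries of each tefluthrin group lay above all 3 of acetochlor 7.8 µM, as the plot of change by library shows. Over all transcripts within the level limits, the same medians lay between -0.01 and 0.01 in every library. Median-of-ratios scaling is built to bring the typical transcript to no change, so these values near 0 largely follow from it.

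As a share of all counts, the 189 transcripts held 0.406% ± 0.035 at acetochlor 7.8 µM (SD, n = 3), 0.854% ± 0.073 at tefluthrin 2.3 µM and 0.726% ± 0.011 at tefluthrin 60 nM, against 0.252% ± 0.022 in control. The order of the tefluthrin groups in this share turned when a single transcript, ranked 44, was left out. Without it the share was 0.702%, 0.654% and 0.718% in the 3 libraries of tefluthrin 2.3 µM, and 0.736%, 0.714% and 0.722% at 60 nM, with means of 0.691% and 0.724%, and the highest 2.3 µM library (0.718%) lay above the lowest 60 nM library (0.714%).

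The set covered a wide range of scaled counts. Its median spread between replicates lay above that of a wider group of transcripts, by least at tefluthrin 60 nM and by most in control. The difference was not tested. The mean scaled count of a transcript had a median of 134 and a highest value of 11414 at acetochlor 7.8 µM, 255 and 35499 at tefluthrin 2.3 µM and 225 and 20300 at tefluthrin 60 nM, against 84.0 and 7909 in control. Among the 122 transcripts with a control mean of at least 50, the median coefficient of variation over 3 libraries was 11.8% at acetochlor 7.8 µM, 11.4% at tefluthrin 2.3 µM and 10.1% at tefluthrin 60 nM, against 11.9% in control. Over 21417 transcripts, the same medians were 10.7%, 10.5% and 9.96%, against 9.59% in control. These were all transcripts within the level limits with a control mean of at least 50, the 122 included, and were not matched to the set by level.

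At the limit of the set the values were close. The transcripts ranked 188 and 189 had a smallest difference of 0.402 and 0.401, in both cases that of acetochlor. The next transcripts, which met every other condition, had 0.3995 and 0.398.

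edgeR's quasi-likelihood test over all 35865 transcripts with enough counts, which included all 189, was used to call differences, at an adjusted p-value (Benjamini-Hochberg) under 0.05. Because the same contrasts chose the transcripts, these counts describe the set only. At acetochlor 7.8 µM 12 of the 189 were called higher than control and 0 lower, where 0.1% of all tested transcripts were called higher and 0.00558% lower. An unadjusted p-value under 0.05 was reached by 172 of the 189 and by 2555 of the 35865 tested transcripts (7.12%). At tefluthrin 2.3 µM 175 were called higher and 0 lower, where the shares of all tested transcripts were 14.4% and 15.4%. At tefluthrin 60 nM 166 were called higher and 0 lower, where the shares were 8.47% and 7.92%. The 12 were called in all 3 comparisons, and 159 in both tefluthrin comparisons. The shares of all tested transcripts called jointly are not given here, and the rule required a rise in all 3 comparisons.

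The acetochlor count was the least settled. It was 36 without acetochlor 7.8 µM replicate III and 29 when libraries were scaled by their totals alone, and DESeq2 gave 82. It fell to 5 without acetochlor replicate I and to 4 without replicate II, to 5 without control replicate I and to 4 without control replicate II, and to 2 when the fit held only the 6 libraries compared. The shares of all tested transcripts called under these alternatives are not given here, so the counts show only how far the number of calls moved. The 12 called transcripts were ranked between 2 and 173, and 6 of them had whole estimates.

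The transcripts with the largest smallest difference come first. ENSDART00000156673.2, ranked 1, had 177, 149 and 77.6 scaled counts at acetochlor 7.8 µM, 248, 100.2 and 179 at tefluthrin 2.3 µM and 244, 183 and 138 at tefluthrin 60 nM, against 45.1, 26.1 and 40.1 in control. The 9 exposed libraries of those groups overlapped one another and none overlapped the controls. Over control, edgeR called its rise at both tefluthrin concentrations and not at acetochlor 7.8 µM (adjusted p = 0.121). In the 780 nM acetochlor group it had 45.1, 37.4 and 43.1 scaled counts, within or just above the range of the controls. For acetochlor 7.8 µM over 780 nM its log2 fold change was 1.69 (SE 0.37), which edgeR did not call (adjusted p = 0.267) and DESeq2 did (adjusted p = 0.00173). Its log2 fold change was -0.11 between the tefluthrin concentrations (SE 0.35, 95% interval -0.87 to 0.64, edgeR adjusted p = 0.886), and -0.37 between acetochlor 7.8 µM and tefluthrin 2.3 µM (95% interval -1.13 to 0.39, edgeR adjusted p = 0.488).

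ENSDART00000011397.7, ranked 2, had 861, 902 and 275 scaled counts at acetochlor 7.8 µM, 1221, 1000.1 and 1411 at tefluthrin 2.3 µM and 251, 265 and 281 at tefluthrin 60 nM, against 77.8, 69.3 and 87.8 in control. Acetochlor replicate III stood at the level of tefluthrin 60 nM, and replicates I and II stood nearer to tefluthrin 2.3 µM. At acetochlor 780 nM the libraries had 79.4, 66.0 and 79.1, inside or next to the control range. The direct tests gave a log2 fold change of 3.18 for acetochlor 7.8 µM over 780 nM (SE 0.36, edgeR adjusted p = 0.00388) and of 2.18 for tefluthrin 2.3 µM over 60 nM (SE 0.33, edgeR adjusted p = 0.000681). The first of these calls was lost when only the 6 libraries compared were fitted (edgeR adjusted p = 0.256) and with limma voom (adjusted p = 0.052). The transcript ranked 1 had fractional estimates, while that ranked 2 departed from whole counts by at most 0.004 counts in any library.

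**Figure D2:**
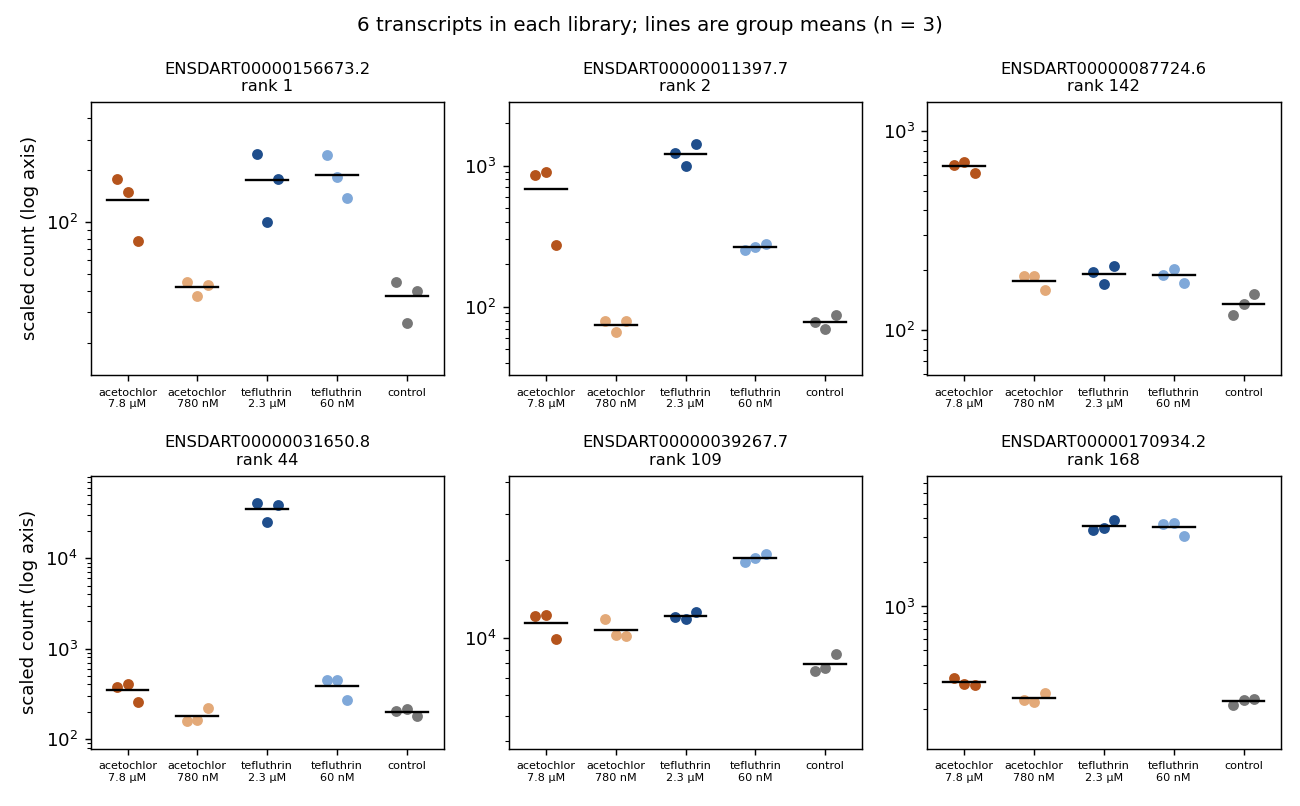
Scaled counts of 6 transcripts in each library on log axes, with 1 panel per transcript and its own range, groups in the same order in each panel, and lines at the group means (n = 3). The panels include a transcript high at acetochlor 7.8 µM and both tefluthrin concentrations (rank 1) and one raised alike at both tefluthrin concentrations (rank 168). Others stand far above the rest at acetochlor 7.8 µM (rank 142) or tefluthrin 2.3 µM (rank 44).

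The highest-ranked transcripts with whole estimates, chosen after their values were seen, were ranked 7, 9 and 10. The transcript ranked 7 had 381, 500.2 and 193 scaled counts at acetochlor 7.8 µM, 5620, 4681 and 5082 at tefluthrin 2.3 µM and 1295, 1328 and 1275 at tefluthrin 60 nM, against 115, 102 and 157 in control. The groups lay one above the other without overlap, with acetochlor 780 nM at the level of control (149.8, 128 and 116). On the log2 scale tefluthrin 2.3 µM exceeded 60 nM by 1.97 ± 0.25 (fold change and its SE), with an adjusted p of 0.000207 from edgeR.

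The transcript ranked 9 showed the reverse order of the tefluthrin concentrations. It had 144, 138 and 78.6 scaled counts at acetochlor 7.8 µM, 117, 106 and 135 at tefluthrin 2.3 µM and 295, 297 and 359 at tefluthrin 60 nM, against 31.0, 35.7 and 55.6 in control. Tefluthrin 2.3 µM stood under 60 nM in all libraries, with a fold change of -1.42 on the log2 scale (SE 0.24, adjusted p = 0.00141 from edgeR). Acetochlor 7.8 µM and tefluthrin 2.3 µM overlapped. The transcript ranked 10 had few counts, with mean scaled counts of 15.2 at acetochlor 7.8 µM, 93.9 at tefluthrin 2.3 µM and 40.3 at tefluthrin 60 nM, against 2.47 in control.

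The effect of the tefluthrin concentration was tested directly, a contrast that the choice of transcripts did not use and in which no control library enters. The rule asked the same of both groups, but a transcript that missed its conditions in 1 of them could not enter the set, however high the other stood. Of the 189 transcripts, 48 (25.4%) were called higher at 2.3 µM than at 60 nM, 27 (14.3%) were called lower, and 114 (60.3%) were not called. Among the tested transcripts within the level limits the shares were 12.6% higher and 13.9% lower. The median log2 fold change of the set was 0.06, and it was -0.01 over all tested transcripts. Every 2.3 µM library lay above every 60 nM library in 61 transcripts (32.3%, against 23.8% within the level limits) and below in 38 (20.1%, against 22.8%). Scaled by library totals alone, 33 were higher and 36 lower, so the excess of higher over lower calls depended on the scaling. That scaling moved the median of all tested transcripts to -0.16 and that of the set to -0.09. A change of scaling shifts the fold changes of all transcripts nearly alike. The order of the set's median and that of all tested transcripts was therefore bound to stay the same. Without tefluthrin 2.3 µM replicate I the counts were 30 and 20. Shares of all tested transcripts called under these 2 alternatives are not given here.

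**Figure D3:**
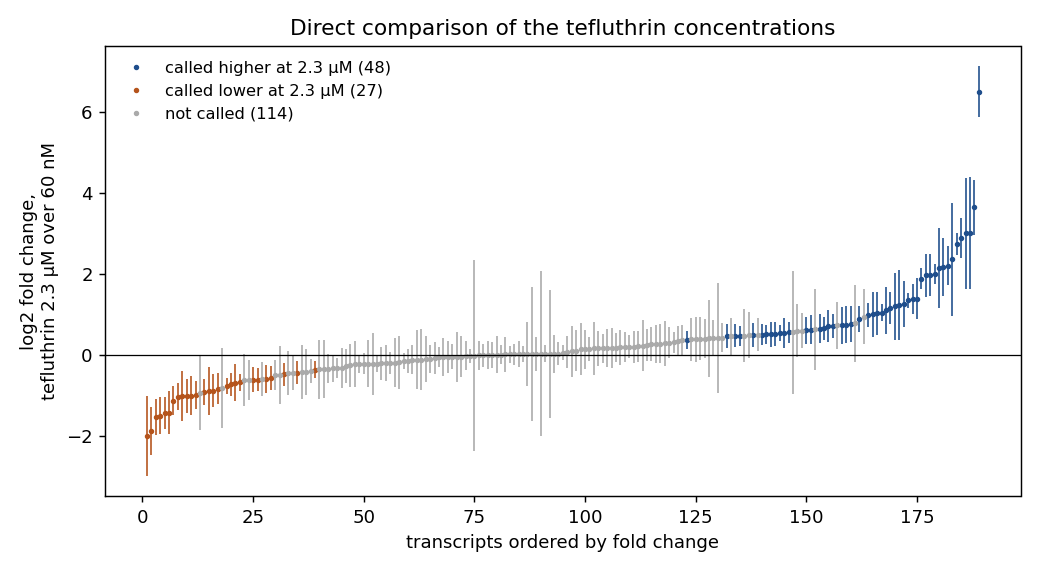
Log2 fold change of tefluthrin 2.3 µM over 60 nM for each of the 189 transcripts in increasing order, with 95% intervals from edgeR as vertical lines. In this fit 48 transcripts were called higher and 27 lower, and a single transcript stands at 6.51.

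The 48 transcripts higher at 2.3 µM had a median difference from control of 2.66 at 2.3 µM and of 1.24 at 60 nM. For 25 of them the log2 fold change between the concentrations was at least 1, and for 4 at least 3. The 27 transcripts lower at 2.3 µM had a median difference of 1.12 at 2.3 µM and 2.03 at 60 nM, and 10 of them had a log2 fold change of at most -1. The 114 others had medians of 1.22 and 1.19; for 90 of them the 95% interval of the change between concentrations lay within 2-fold in either direction, and for 24 it reached beyond.

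The transcript with the smallest p-value among those higher at 2.3 µM was ENSDART00000031650.8, ranked 44. It had 41476, 25428 and 39595 scaled counts in the 3 libraries of tefluthrin 2.3 µM. At tefluthrin 60 nM it had 444, 446 and 270.1. Acetochlor 7.8 µM gave 372, 403 and 258, acetochlor 780 nM gave 155, 161 and 222, and control gave 202, 215 and 177. Tefluthrin 2.3 µM stood alone, and acetochlor 7.8 µM and tefluthrin 60 nM overlapped each other. All their libraries lay above control, as the choice required (1.74-fold and 1.95-fold in the fit). Of these 2 rises, edgeR called that of tefluthrin 60 nM (adjusted p = 0.0176) and not that of acetochlor 7.8 µM (adjusted p = 0.452). The log2 fold change between the tefluthrin concentrations was 6.51 (SE 0.29, edgeR adjusted p = 1.6e-07), which is 91.3-fold. The transcript with the next largest change in this direction, ranked 15, had 2134, 923 and 1130 scaled counts at 2.3 µM and 113, 126 and 90.7 at 60 nM (log2 fold change 3.65, SE 0.31, edgeR adjusted p = 1.29e-05). Both had fractional estimates.

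Among those lower at 2.3 µM, ENSDART00000039267.7, ranked 109, had the smallest p-value and also had the highest control mean of scaled counts in the set, a value that depends on its length too. It had 12018, 11777 and 12557 scaled counts at tefluthrin 2.3 µM and 19511, 20266 and 21124 at tefluthrin 60 nM. Its level was 12134, 12186 and 9921 at acetochlor 7.8 µM and 11812, 10254 and 10134 at acetochlor 780 nM, against 7457, 7605 and 8666 in control. Tefluthrin 60 nM lay above all other groups, whereas both acetochlor groups and tefluthrin 2.3 µM lay close together above control. Both tefluthrin groups were called against control by edgeR. Acetochlor was not called at 7.8 µM (edgeR adjusted p = 0.0587) or at 780 nM. The log2 fold change of tefluthrin 2.3 µM over 60 nM was -0.75 (SE 0.09, edgeR adjusted p = 0.000162). The change between the acetochlor concentrations was 0.09 (95% interval -0.11 to 0.28, edgeR adjusted p = 1).

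The largest fold in that direction, noted after the values were seen, was that of the transcript ranked 61, which had whole estimates. It had 29.3, 65.0 and 25.2 scaled counts at tefluthrin 2.3 µM and 174, 144 and 154 at tefluthrin 60 nM. The log2 fold change was -1.99 (SE 0.46, edgeR adjusted p = 0.00903), and no library of the 2 groups overlapped.

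The compounds were then compared directly, without control libraries in the contrast. Both sides had to lie above control to enter the set and a high tefluthrin value was a condition of the choice, so the counts are not independent of it. Of the 189 transcripts, 107 (56.6%) were called lower at acetochlor 7.8 µM than at tefluthrin 2.3 µM and 2 higher; within the level limits the shares were 18.8% lower and 19.8% higher. Against tefluthrin 60 nM, 96 (50.8%) were called lower at acetochlor 7.8 µM and 3 higher, where the shares were 9.26% and 7.55%. Every acetochlor library lay below every tefluthrin library in 128 transcripts (67.7%, against 26.9% within the level limits) at 2.3 µM and in 127 (67.2%, against 19.3%) at 60 nM. The median log2 fold change of the set was -0.80 against tefluthrin 2.3 µM and -0.63 against 60 nM, and the medians over all tested transcripts were 0.02 and 0.01. The doses of the compounds differ, so these values set an acetochlor dose beside a tefluthrin dose and do not rank the compounds at a common dose.

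By transcript, 74 (39.2%) were called lower at acetochlor 7.8 µM than at both tefluthrin concentrations, against 6.52% of the tested transcripts within the level limits. A further 32 (16.9%, against 12.1%) were called lower than at 2.3 µM and not called against 60 nM, and 22 (11.6%, against 2.49%) were called lower than at 60 nM and not called against 2.3 µM. In 57 transcripts (30.2%, against 56.9%) acetochlor 7.8 µM was not called against either tefluthrin group. For 39 of these both 95% intervals lay within 2-fold, and for 18 at least 1 interval reached past it. In 53 of the 57 the tefluthrin concentrations were not called against each other either. The transcript ranked 1 was among them.

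ENSDART00000170934.2, ranked 168, was the transcript with the smallest p-value among those lower at acetochlor 7.8 µM than at tefluthrin 2.3 µM. It had 327, 296 and 291 scaled counts at acetochlor 7.8 µM and 229, 221 and 257 at acetochlor 780 nM. Tefluthrin 2.3 µM gave 3310, 3425 and 3927 and tefluthrin 60 nM 3666, 3751 and 3015, against 213, 229 and 232 in control. The tefluthrin groups overlapped at a high level, and acetochlor 7.8 µM lay just above control. That small acetochlor rise was not called by edgeR (adjusted p = 0.215), whereas both tefluthrin rises over control were. The log2 fold change of acetochlor 7.8 µM over tefluthrin 2.3 µM was -3.53 (SE 0.10, edgeR adjusted p = 2.43e-09), and between the tefluthrin concentrations it was 0.02 (95% interval -0.18 to 0.22, edgeR adjusted p = 0.921).

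The transcripts that stood higher with acetochlor were few. ENSDART00000087724.6, ranked 142 and with whole estimates, had the smallest p-value among those higher at acetochlor 7.8 µM both than at 780 nM and than at tefluthrin 2.3 µM. It had 679, 703 and 615 scaled counts at acetochlor 7.8 µM, 187, 188 and 159 at acetochlor 780 nM, 197, 171 and 209 at tefluthrin 2.3 µM and 190, 203 and 173 at tefluthrin 60 nM, against 119, 136 and 153 in control. Acetochlor 7.8 µM stood above all other groups, and acetochlor 780 nM and both tefluthrin groups overlapped. The log2 fold change of acetochlor 7.8 µM was 1.90 over 780 nM (SE 0.11, edgeR adjusted p = 2.8e-05), 1.80 over tefluthrin 2.3 µM (SE 0.11, edgeR adjusted p = 3.59e-07) and 1.82 over tefluthrin 60 nM (SE 0.11, edgeR adjusted p = 9.63e-07).

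The transcript ranked 173, with whole estimates and chosen after its values were seen, rose between the concentrations of both compounds. It had 995, 1031 and 951 scaled counts at acetochlor 7.8 µM and 419, 423 and 391 at 780 nM, a difference of 1.27 on the log2 scale (SE 0.09, adjusted p = 4.55e-05 from edgeR). At tefluthrin it had 1319, 1243 and 1275 at 2.3 µM and 452, 553 and 489 at 60 nM, a difference of 1.35 on the log2 scale (SE 0.09, adjusted p = 1.6e-06 from edgeR). The controls had 381, 326 and 402, so the lower concentration of each compound lay at or a little above control.

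The acetochlor 780 nM libraries took no part in the choice of the transcripts, although the controls they are set against did. In 164 of the 189 transcripts the 780 nM mean was above the control mean and in 25 it was below. The difference had a median of 0.17 on the log2(group mean + 5) scale, against 0.00 over all transcripts within the level limits. The median transcript reached 30.6% of its 7.8 µM difference on this scale, with quartiles of 11.4% and 57.8%. Every 780 nM library lay above every control library in 35 transcripts (18.5%, against 3.02% within the level limits) and below in 2 (1.06%, against 3.28%). The rule required control values below the raised groups; how much that adds to the excess was not tested.

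For single transcripts no 780 nM difference passed the adjusted threshold of edgeR, the 35 without overlap included. Replicates varied most in this group. Its median coefficient of variation was 13.8% over the 122 transcripts with a control mean of at least 50, against at most 11.9% in the other groups. Over all 21417 transcripts at that level it was 13.1%, against at most 10.7%. How far this spread bears on the calls and overlaps at 780 nM was not tested. edgeR called 0 of the 189, as it called 0 (0.0%) of all tested transcripts, with 30 of the 189 and 909 of the 35865 (2.53%) at an unadjusted p-value under 0.05. DESeq2 called 2 of the 189, both higher, and its share of all tested transcripts is not given here. For 143 of the 189 the 95% interval of the 780 nM change lay within 2-fold. The lowest change at 780 nM belonged to the transcript ranked 12, which was listed at 0, 82.4 and 0 in the 780 nM libraries and had 367, 290.3 and 376 scaled counts at acetochlor 7.8 µM, against 124, 85.1 and 175 in control. Its estimates were fractional.

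**Figure D4:**
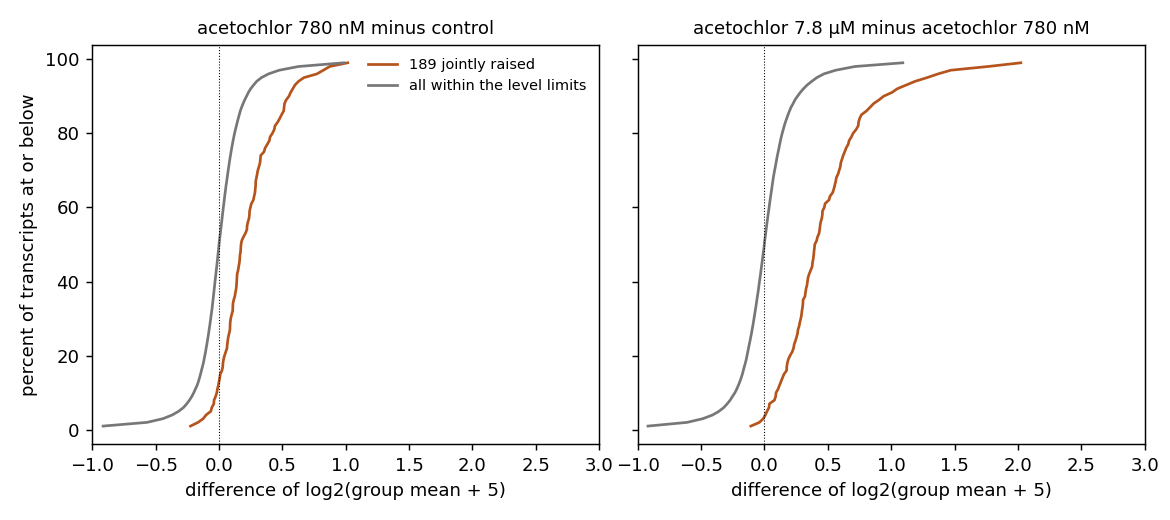
Cumulative share of transcripts by the difference of log2(group mean + 5) for the 189 transcripts and for all transcripts within the level limits, from the 1st to the 99th percentile. The left panel gives acetochlor 780 nM minus control, with medians of 0.17 and 0.00, and the right panel acetochlor 7.8 µM minus 780 nM, where the set lies further to the right.

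Between acetochlor 7.8 µM and 780 nM, 6 of the 189 were called higher and 0 lower, where 0.0922% of the tested transcripts within the level limits were called higher and 0.00419% lower. All 6 were among the 12 called against control. The median log2 fold change of the set was 0.42, and 182 of the 189 were positive. Every 7.8 µM library lay above every 780 nM library in 99 transcripts (52.4%, against 4.08% within the level limits), although high 7.8 µM values were a condition of the choice. The count of calls was 16 without acetochlor 7.8 µM replicate III, 2 when only the 6 libraries compared were fitted and 39 with DESeq2. Shares of all tested transcripts under these alternatives are not given here. In 90 transcripts (47.6%) the 780 nM libraries lay below all 9 libraries of the 3 raised groups, against 1.34% within the level limits; the rule itself required those 9 to be high.

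With acetochlor 780 nM in place of control, a comparison added after the data were seen, fewer transcripts were called at tefluthrin than the 175 and 166 against control. Tefluthrin 2.3 µM was called higher than acetochlor 780 nM in 139 of the 189 (73.5%, against 18.6% within the level limits) and tefluthrin 60 nM in 133 (70.4%, against 10.7%), with 0 lower in either, where 19.8% and 9.77% were called lower. Every library lay above every acetochlor 780 nM library in 160 transcripts (84.7%, against 25.1%) for tefluthrin 2.3 µM and in 150 (79.4%, against 18.8%) for tefluthrin 60 nM. The acetochlor 780 nM libraries were not used in the choice, but the tefluthrin libraries were. The 175 and 166 rest on controls that the rule required to lie below the raised groups. How much that adds to the difference in counts was not tested.

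Transcripts with whole estimates, counted apart after the data were seen, moved further with tefluthrin than those with fractional ones. Their median difference from control was 0.61 at acetochlor 7.8 µM and 1.94 at tefluthrin 2.3 µM, whereas for the 142 with fractional estimates it was 0.61 and 1.33. Of these 47, 19 were called higher and 6 lower at tefluthrin 2.3 µM than at 60 nM, and of the 142 others 29 higher and 21 lower; among all whole-estimate transcripts within the level limits 15.8% were called higher and 17.6% lower. At acetochlor 7.8 µM, 38 of the 47 and 69 of the 142 were called lower than at tefluthrin 2.3 µM, where 23.6% of all whole-estimate transcripts within the level limits were. Over all tested transcripts within the level limits, whole or fractional, 12.6% were called higher and 13.9% lower at tefluthrin 2.3 µM than at 60 nM. The share of them called lower at acetochlor 7.8 µM than at tefluthrin 2.3 µM was 18.8%. No shares over fractional transcripts alone are given here, and the difference between whole and fractional estimates was not tested. In 1 transcript, ranked 50, every control library had at most 3 counts, and in 6 at least 1 control library was at 0.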

How the data were processed

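Per the file headers, the authors deposited estimated counts of reads per Ensembl transcript for 15 libraries of poly(A) RNA, made without normalisation for depth. The submitters' processing notes list FastQC, MultiQC, Salmon 1.6.0 and the build GRCz11; the annotation release is not given in the sources used here. Column headers give the higher tefluthrin dose in nM and the labels in µM; groups follow the labels. The 189 transcripts and all comparisons were chosen with earlier results of these data known. The files pair no identifier with a gene, so planned gene and marker lists were not used. Fewer than the intended 200 transcripts met the rule, so values beyond its limit come from transcripts that failed it.

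Estimated counts were rounded to whole numbers and low transcripts were removed (filterByExpr of edgeR, grouped by treatment), leaving 35865. Libraries were scaled by TMM and a quasi-likelihood model of group alone was fitted over the 15 libraries together (edgeR 4.0.16, R 4.3.3). Tests were two-sided, with Benjamini-Hochberg adjustment across these transcripts. Alternatives used limma 3.58.1 and DESeq2 1.42.0. The fit was tested on simulated data. Scaled counts are estimated counts divided by median-of-ratios factors. Library totals were 17354405 to 25191374 counts. Replicate pairs differed by more than sampling noise (chi-square per degree of freedom 2.98 to 22.6), so each library counted as 1 replicate. The highest values, 9.36, 11.1 and 22.6, were those between acetochlor 780 nM libraries, and no other pair exceeded 7.56. The named identifiers were those of rank 1 and 2 and, in 3 direct comparisons, the called transcript of each direction that had the lowest p-value and no overlap between libraries.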

Additional observations from a re-analysis of the deposited data

Results flagged for a closer look

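Groups that share the same controls differed in direct tests, as counted over the 189 transcripts by edgeR at an adjusted p-value under 0.05; all were groups the choice of transcripts used, apart from acetochlor 780 nM. Between tefluthrin 2.3 µM and 60 nM 75 differed, 48 higher and 27 lower, where 12.6% and 13.9% of the tested transcripts within the level limits were called higher and lower. Acetochlor 7.8 µM differed from tefluthrin 2.3 µM in 109, 2 higher and 107 lower (19.8% and 18.8%), and from tefluthrin 60 nM in 99, 3 higher and 96 lower (7.55% and 9.26%). Acetochlor 7.8 µM was higher than 780 nM in 6 (0.0922%). Tefluthrin 2.3 µM was higher than acetochlor 780 nM in 139 (18.6%) and tefluthrin 60 nM in 133 (10.7%), with 0 lower.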

How the results depend on the processing

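Of the counts of called transcripts recomputed under the alternatives, 117 stayed within 1.5 times and 13 did not. All 13 were in comparisons of acetochlor with control or between its concentrations. These counts took higher and lower calls together, so a shift between directions did not show in them. Between the tefluthrin concentrations, 48 higher and 27 lower became 33 and 36 with library totals only. They became 30 and 20 without tefluthrin 2.3 µM replicate I. At acetochlor 7.8 µM against control (12 called) the count was 29 with library totals only, 2 with only the 6 libraries compared and 82 with DESeq2, and 4 to 36 when 1 library was left out. Against acetochlor 780 nM (6 called) it was 2 with only the 6 libraries and 39 with DESeq2, and 4 to 16 with 1 library left out. At 780 nM against control (0 called) DESeq2 gave 2, both higher. Leaving out 1 library gave 0 to 1, and the 1 call, without acetochlor 780 nM replicate II, was lower. Of the 189 transcripts, 94 to 186 were taken again when 1 library was left out of the rule. Between 191 and 457 transcripts then met the conditions and at most 200 were taken, so a transcript not taken again had not necessarily failed them. With library totals only, the median change of the set between the tefluthrin concentrations was -0.09, against 0.06 in the main fit. Over all tested transcripts the same medians were -0.16 and -0.01. The shares of all tested transcripts called under each alternative are not given here, and the cause of these shifts was not tested.

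With the replicate block, 70 transcripts differed between the tefluthrin concentrations, 8 at acetochlor 7.8 µM against control and 4 between the acetochlor concentrations. The shares of all tested transcripts called with the block are not given here. Over 30 pairs of same-numbered libraries from different groups, the correlations of their deviations ran from -0.08 to 0.06. Over 60 pairs with different numbers they ran from -0.06 to 0.06. Whether a number marks a shared clutch, batch or date was not tested. Without molecular identifiers, reads do not stand for independent molecules, and depth limits the transcripts with few counts most.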
